A study of Homo sapiens with 24 samples.

Results

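The comparison described here set HEK293T cells 24 h after transfection with FMR4 siRNA against HEK293T cells 24 h after transfection with a pcDNA3.1 plasmid. It used 9 of the 24 arrays of the study, chosen by their titles. FMR4 siRNA was on 3 arrays, CTRL pcDNA3.1 (the empty vector) on 3 and FMR4 pcDNA3.1 (the vector carrying FMR4) on 3, and both plasmid groups had equal weight in the plasmid mean. The difference was taken for 18417 genes, each read from its brightest probe set. HEK293T is a human embryonic kidney line that carries the SV40 large T antigen. The siRNAs were delivered at 40 nM with Lipofectamine RNAiMAX, and the plasmids at 0.5 µg with Lipofectamine 2000CD. The kind of nucleic acid, the reagent and the target of the siRNA therefore all differ between the FMR4 siRNA and the plasmid arrays, and cannot be told apart by this difference alone. For that reason the 3 arrays of CTRL siRNA at 24 h, a commercial negative control siRNA delivered like the FMR4 siRNA, are given beside the main results. Each biological replicate was a pool of 3 technical replicates of 1 cell line, so p-values measure the spread between such pools. No probe set is assigned to FMR4 in the annotation used, and the depth of the knockdown was not read from these arrays.

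FMR4 is a long noncoding RNA transcribed antisense from the FMR1 locus, the gene whose silencing causes fragile X syndrome. A small interfering RNA is loaded into an Argonaute protein, and AGO2 cuts RNAs that pair with it along its whole length, while partial pairing at its seed can lower other mRNAs through TNRC6 proteins and deadenylation. Transfected cells can also respond to the nucleic acid and the lipid themselves. A common stress programme of cultured cells begins in the endoplasmic reticulum, where the sensors EIF2AK3, ERN1 and ATF6 detect unfolded protein. Through ATF4, XBP1 and cleaved ATF6 they raise chaperones, degradation factors and regulators such as DDIT3 and ATF3.

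At 24 h FMR4 siRNA readings were above the plasmid level for 1307 genes (7.1% of those tested) and below it for 980 (5.32%), at an adjusted p under 0.05 in limma. Together these are 2287 genes, or 12.4%. Most differences were small. Of the called genes 36 rose and 65 fell by at least 1.5-fold, and only 6 rose and 4 fell by more than 2-fold. The median over all genes was near 0 (-0.005 on the log2 scale), and 48.2% of genes were positive. All 3 FMR4 siRNA arrays lay above all 6 plasmid arrays for 1938 genes (10.5%) and below them for 1404 (7.62%). Of the called genes, 1166 and 840 had such separate arrays.

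The share of called genes that were higher depended on scaling and on 1 array. It was 57.1% as deposited, 55.7% after quantile normalization (1319 higher and 1051 lower) and 72.8% with every array centred on its median (2006 and 748), which moved the median of all genes to 0.03. Without FMR4 siRNA replicate 2 the count fell to 626 higher and 839 lower. Against CTRL pcDNA3.1 alone there were 760 higher and 796 lower genes, and against FMR4 pcDNA3.1 alone 951 and 593. The plasmid groups themselves gave 0 genes in limma when set against each other, with 602 of 18417 genes at an unadjusted p under 0.05.

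The largest rises, with their values on each array, began with GEM, ANKRD1, DNAJB9 and ATF3. GEM, a small GTPase, read 8.35, 8.68 and 8.60 (log2) with FMR4 siRNA against a lowest, median and highest plasmid value of 6.92, 7.13 and 7.45. Its difference was 1.39 (SE 0.18, adjusted p = 1.2e-05), or 2.63-fold. The groups did not overlap, but CTRL siRNA read 8.29, 7.61 and 8.62, and so lay in or near the FMR4 siRNA range on 2 of its 3 arrays.

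DNAJB9, a co-chaperone of the endoplasmic reticulum, read 9.43, 9.76 and 9.53 against 8.11, 8.29 and 8.52 on the plasmid arrays. The difference was 1.27 (SE 0.12, adjusted p = 3.3e-07). CTRL siRNA lay between these groups at 9.05, 8.51 and 9.23. ATF3, a stress-induced transcription factor, read 8.60, 8.98 and 9.06 against 7.55, 7.70 and 7.78, a difference of 1.20 (SE 0.14, adjusted p = 6.7e-06). Its CTRL siRNA arrays were split, with 8.49 and 8.76 near the FMR4 siRNA arrays and replicate 2 (7.73) inside the plasmid range.

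PTGS2, the inducible cyclooxygenase, rose by 1.10 and INHBA, the activin A subunit, by 1.08. INHBA read 7.87, 7.997 and 7.93 with FMR4 siRNA and 6.69, 6.88 and 6.99 on the plasmid arrays. CTRL siRNA reached the same level (8.001, 7.42 and 8.20), and FMR4 siRNA minus CTRL siRNA was 0.06 for INHBA and 0.08 for PTGS2. The orphan nuclear receptor NR6A1 was alike in this respect. It read 10.04, 10.25 and 10.20 with FMR4 siRNA, 9.18, 9.32 and 9.41 on the plasmid arrays, and 10.13, 10.09 and 10.21 with CTRL siRNA, so that both siRNA groups lay above all plasmid arrays.

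DERL3, which acts in degradation of proteins from the endoplasmic reticulum, rose by 0.94 and the transcriptional repressor HBP1 by 0.88. ANKRD1, a muscle ankyrin repeat protein that SRF and YAP induce, rose by 1.30 (SE 0.28, adjusted p = 0.0033), with FMR4 siRNA values as far apart as 7.65 and 8.38. The remaining members of the 12 largest rises were PARM1 (0.83), OSTN (0.83) and KRTAP21-2 (0.84). OSTN, a secreted peptide, lost its call without FMR4 siRNA replicate 2 (adjusted p = 0.12). KRTAP21-2 read 5.61 to 5.84 on the plasmid arrays, under the upper quartile of silent gene families, which was 5.94. Over the 12 genes CTRL siRNA minus plasmid, which shares the plasmid arrays, ranged from 0.29 for HBP1 to 1.03 for PTGS2.

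**Figure D1:**
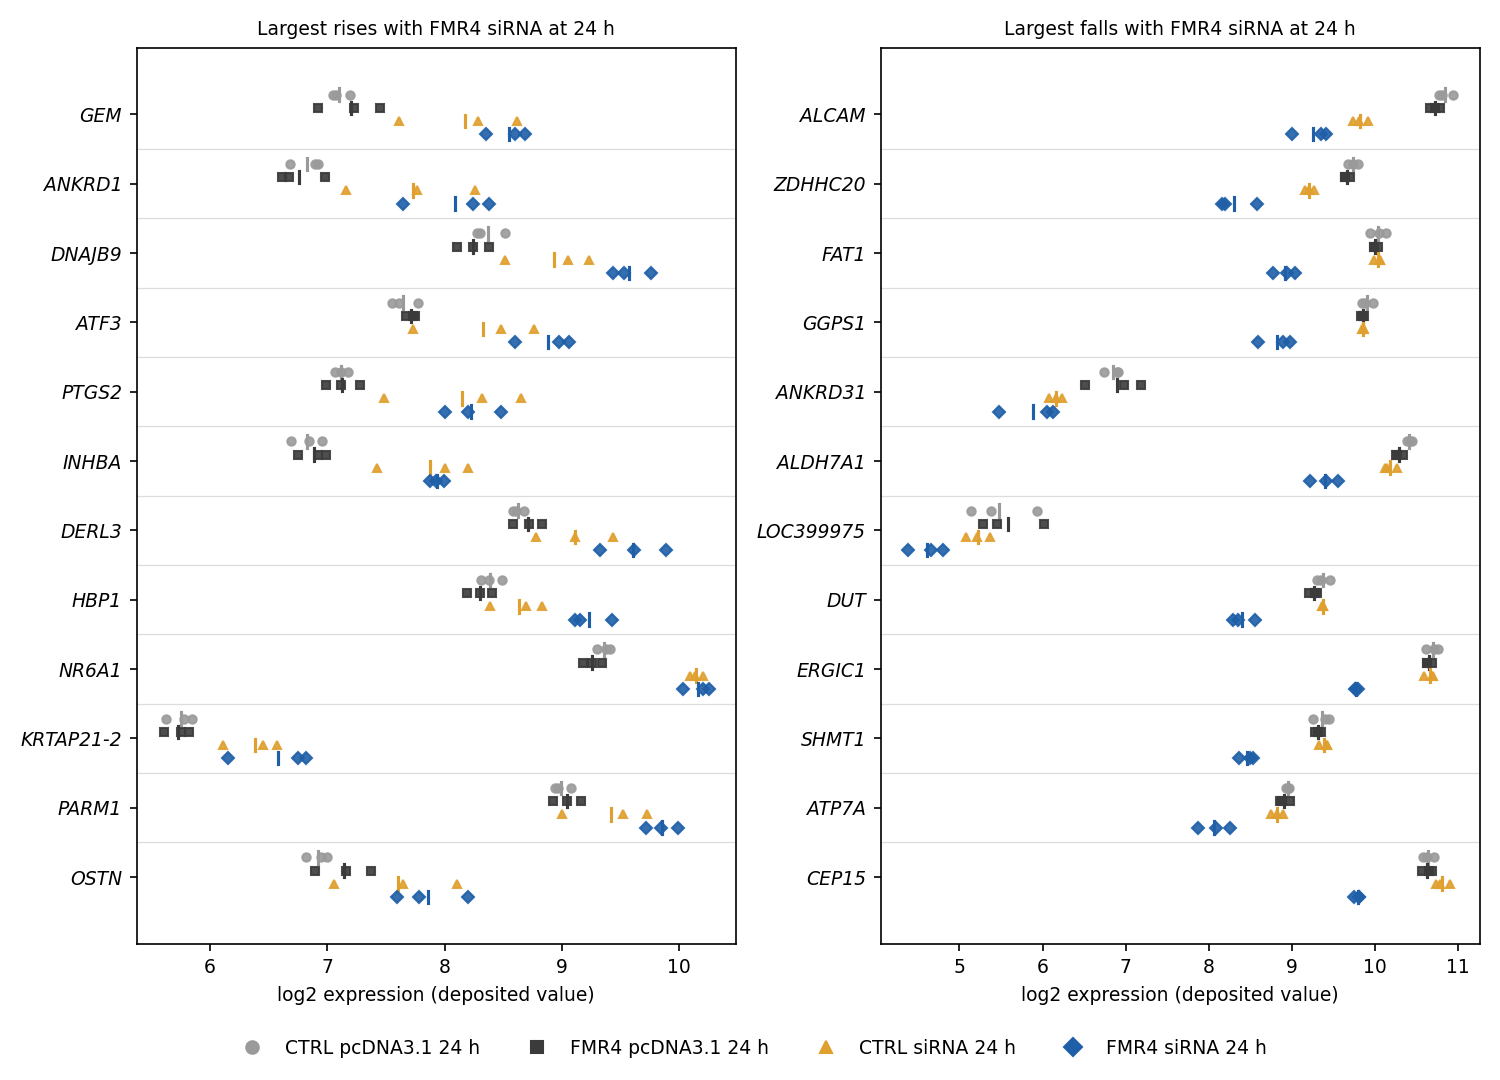
Deposited log2 expression (x axis) of the 12 genes with the largest rise (left) and the 12 with the largest fall (right) among called genes with separate arrays, on the 12 arrays of 24 h. Each symbol is 1 array and each tick a group mean. For some rises all CTRL siRNA arrays lie with the FMR4 siRNA arrays, as in NR6A1 (10.09 to 10.21 against 10.04 to 10.25). For others they are spread, as in ATF3, where replicate 2 (7.73) lies inside the plasmid range. For falls such as FAT1 the CTRL siRNA arrays lie with the plasmid arrays (9.99 to 10.07 against 9.94 to 10.13).

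In the falls CTRL siRNA mostly stayed near the plasmid level. The largest was ALCAM, a cell adhesion molecule of the immunoglobulin family, and it was an exception. It read 9.35, 9.42 and 9.001 with FMR4 siRNA against 10.67, 10.78 and 10.94 on the plasmid arrays, 2.88-fold lower. The difference was -1.53 with an SE of 0.080 (adjusted p = 7.0e-11). CTRL siRNA stood between them at 9.91, 9.73 and 9.81, 0.96 under the plasmid mean. ZDHHC20, a palmitoyltransferase, was also intermediate with CTRL siRNA (9.16, 9.27 and 9.21). It read 8.58, 8.20 and 8.16 with FMR4 siRNA and 9.64, 9.69 and 9.80 on the plasmid arrays, a difference of -1.39.

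FAT1, a large protocadherin, read 8.95, 9.04 and 8.78 with FMR4 siRNA and 9.94, 10.02 and 10.13 on the plasmid arrays. It differed by -1.10 (SE 0.080, adjusted p = 5.8e-09), while CTRL siRNA read 10.06, 9.99 and 10.07. CTRL siRNA minus plasmid was thus 0.01 for FAT1. GGPS1, which makes geranylgeranyl diphosphate for protein prenylation, fell from 9.84, 9.87 and 9.98 to 8.90, 8.98 and 8.59, a difference of -1.06, with CTRL siRNA at 9.85, 9.87 and 9.85. The 3 CTRL siRNA arrays of GGPS1 all lay within the plasmid range.

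A pair of enzymes of thymidylate metabolism were among these genes. DUT, the dUTPase that keeps uracil out of DNA, read 8.30, 8.56 and 8.35 against 9.21, 9.31 and 9.46, a difference of -0.92 (SE 0.059, adjusted p = 1.1e-09). SHMT1, the cytosolic serine hydroxymethyltransferase, read 8.49, 8.54 and 8.37 against 9.26, 9.34 and 9.45, a difference of -0.88. CTRL siRNA stayed close to the plasmid arrays for both, at 9.37 to 9.38 for DUT and 9.33 to 9.43 for SHMT1.

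ERGIC1, a membrane protein that cycles between the endoplasmic reticulum and the Golgi, had the tightest values. It read 9.77, 9.79 and 9.78 against 10.62, 10.66 and 10.76 (difference -0.89), with CTRL siRNA at 10.69, 10.71 and 10.59. ALDH7A1, an aldehyde dehydrogenase of lysine breakdown, fell by 0.96, the copper transporter ATP7A by 0.86 and the centrosomal protein CEP15 by 0.84. For these genes CTRL siRNA minus plasmid was -0.17, -0.11 and 0.17. The other members of the 12 largest falls were ANKRD31 (-0.99, with CTRL siRNA at -0.71) and LOC399975 (-0.92), whose FMR4 siRNA values of 4.81, 4.38 and 4.66 lie under the silent-gene level and whose call was lost without FMR4 siRNA replicate 2 (adjusted p = 0.080).

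To ask which genes set FMR4 siRNA apart from every other group of 24 h, its differences from the CTRL siRNA group and from each plasmid group had all to have 1 sign, and the weakest of the 3 had to pass. By this test 47 genes (0.255%) were highest and 171 (0.928%) were lowest with FMR4 siRNA. Falls made up most of these calls. FMR4 siRNA minus CTRL siRNA alone, at the same threshold, gave 632 higher (3.43%) and 451 lower genes (2.45%), and CTRL siRNA minus the plasmid arrays gave 560 (3.04%) and 711 (3.86%). These comparisons share arrays, and are given side by side.

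FAT1 had the largest of the smallest differences, -1.09 (adjusted p = 2.1e-07), followed by GGPS1 (-1.03), ZDHHC20 (-0.90), ERGIC1 (-0.87), DUT (-0.86), SHMT1 (-0.85) and CEP15 (-0.84). The next was RPA1, the large subunit of the complex that coats single-stranded DNA. RPA1 read 9.79, 9.83 and 9.69 with FMR4 siRNA, 10.52, 10.59 and 10.63 on the plasmid arrays, and 10.71, 10.71 and 10.64 with CTRL siRNA. Its smallest difference was -0.79 (adjusted p = 9.1e-09), and its FMR4 siRNA arrays stood clear of all other arrays of 24 h. ALCAM passed as well with a smallest difference of -0.56 (adjusted p = 0.0012).

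Members of the fixed gene lists passed this test too. KMT5A, a histone methyltransferase active in the cell cycle, read 11.37, 11.48 and 11.35 with FMR4 siRNA, 12.14, 12.16 and 12.19 on the plasmid arrays and 12.30, 12.29 and 12.24 with CTRL siRNA. Its smallest difference was -0.77 (adjusted p = 8.9e-07). APAF1, the scaffold of the apoptosome, had a smallest difference of -0.79 (adjusted p = 3.3e-05) and SKP2, the F-box protein that marks CDKN1B for degradation, of -0.45 (adjusted p = 7.4e-06). Of these 3, KMT5A had the narrowest plasmid range.

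On the higher side MBOAT1, a lysophospholipid acyltransferase, led with 9.50, 9.54 and 9.32 against 8.67, 8.73 and 8.86 on the plasmid arrays and 8.76, 8.69 and 8.66 with CTRL siRNA. Its smallest difference was 0.70 (adjusted p = 7.3e-06). DNAJB9 (0.64, adjusted p = 0.020), HBP1 (0.59), USP31, a ubiquitin protease (0.53), CPEB2, a cytoplasmic polyadenylation factor (0.52), LONRF1 (0.46), AKTIP (0.43) and SPRED2, an inhibitor of MAP kinase signalling (0.43), followed. Some of these rested on CTRL siRNA replicate 2, which had the lowest CTRL siRNA value in DNAJB9, HBP1, CPEB2 and AKTIP. Without it the calls of DNAJB9, HBP1 (adjusted p = 0.056), CPEB2 and AKTIP were lost, and the counts became 19 higher and 142 lower. DNAJB9 was also lost without FMR4 siRNA replicate 2 or 3, CPEB2 without FMR4 siRNA replicate 2, and AKTIP without FMR4 siRNA replicate 1 or 2 or CTRL pcDNA3.1 replicate 1 or 2. Without FMR4 siRNA replicate 2 the counts were 16 and 180, and without replicate 3 they were 34 and 98.

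**Figure D2:**
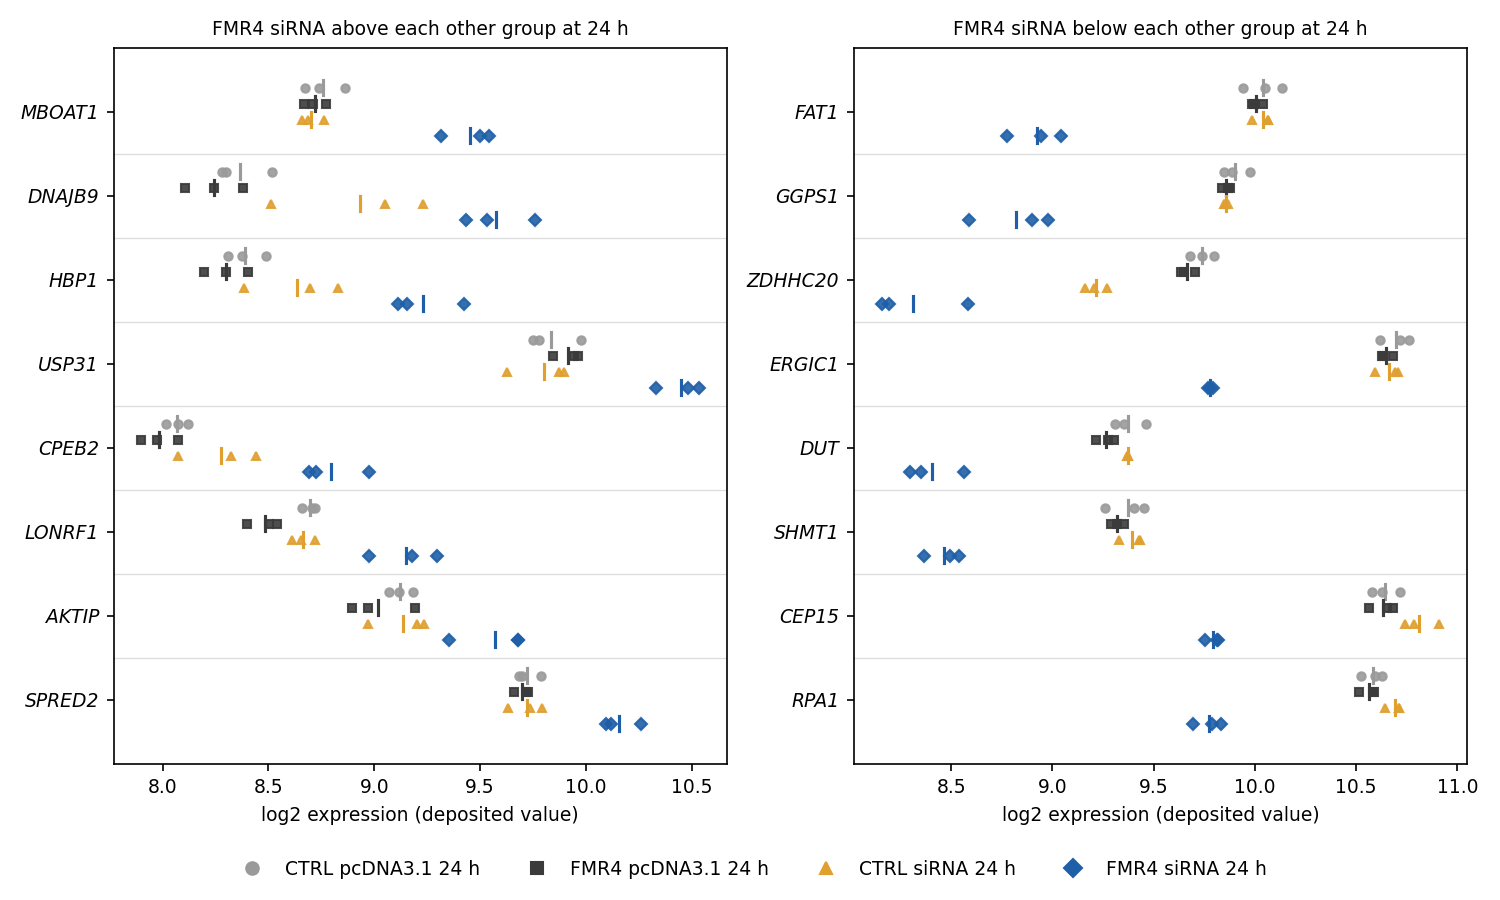
Deposited log2 expression (x axis) of the 8 genes in which FMR4 siRNA was highest (left) and the 8 in which it was lowest (right) of the 4 groups of 24 h by the smallest of 3 differences. Each symbol is 1 array and each tick a group mean. On the right the 3 FMR4 siRNA arrays of RPA1 (9.69 to 9.83) stand clear of the other 9 arrays (10.52 to 10.71), while on the left 1 of the CTRL siRNA arrays of DNAJB9 (8.51) lies within the plasmid range and the other two do not.

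Among the gene lists, that of the integrated stress and unfolded protein responses had the most calls. Of its 27 measured members 19 were called higher and 0 lower with FMR4 siRNA than on the plasmid arrays, against 7.1% and 5.32% of all genes. The median difference was 0.31 on the log2 scale (all genes -0.005), and 26 of 27 were positive (48.2% of all genes). In 22 all 3 FMR4 siRNA arrays lay above the 6 plasmid arrays (10.5% of all genes). Taken per array, the median difference from the plasmid mean was 0.25, 0.37 and 0.32 for FMR4 siRNA and between -0.05 and 0.05 on the 6 plasmid arrays. The count of 19 fell to 14 without FMR4 siRNA replicate 2, the lowest of the settings that left out 1 array.

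The members beyond DNAJB9, ATF3 and HERPUD1 are named here because this list had the most calls, after their values were seen. HSPA5, the main chaperone of the endoplasmic reticulum, read 13.02, 13.13 and 13.03 with FMR4 siRNA and 12.52, 12.62 and 12.64 on the plasmid arrays, a difference of 0.46, with CTRL siRNA at 12.98, 12.70 and 13.08. HERPUD1, a degradation factor of the same membrane, rose by 0.73 from 10.88, 10.99 and 11.10 to 11.58, 11.83 and 11.73, with CTRL siRNA at 11.64, 11.22 and 11.83. In both genes the low CTRL siRNA array was replicate 2. The chaperones HYOU1 (0.47), DNAJC3 (0.46), CRELD2 (0.29), SDF2L1 (0.26), MANF (0.23) and HSP90B1 (0.18) rose less, as did the degradation factors EDEM1 (0.37) and SEL1L (0.29).

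In the EIF2AK3 branch the sensor and several downstream genes rose. EIF2AK3 itself rose by 0.48, DDIT3, a pro-apoptotic transcription factor, by 0.55, TRIB3, a pseudokinase it induces, by 0.47, SESN2 by 0.54 and PPP1R15A, which restores translation by directing eIF2 dephosphorylation, by 0.66. DDIT3 read 9.24, 9.38 and 9.29 against 8.65, 8.76 and 8.90, with CTRL siRNA at 9.20, 8.71 and 9.39. XBP1 (0.25) and VLDLR (0.46) also passed. The 8 members that did not pass were CHAC1 (0.31), PDIA4 (0.25), ASNS (0.13), PDIA6 (0.12), ATF4 (0.08), ATF6 (0.07), ERN1 (0.03) and DDIT4 (-0.07). The sensors ATF6 and ERN1 and the factor ATF4 were thus not called at the mRNA level.

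CTRL siRNA carried part of this pattern. Against the plasmid arrays it had 9 list members higher and 1 lower (3.04% and 3.86% of all genes). The median was 0.18, and 23 of 27 were positive (47.3% of all genes). FMR4 siRNA minus CTRL siRNA had 3 higher (DNAJB9, HYOU1 and VLDLR) and 0 lower (3.43% and 2.45% of all genes). Its median was 0.17, and 27 of 27 were positive (51.7% of all genes). The CTRL siRNA arrays did not behave alike. Their median differences from the plasmid mean were 0.20, 0.00 and 0.31, so that replicate 2 sat at the plasmid level and replicates 1 and 3 near the FMR4 siRNA arrays. Without CTRL siRNA replicate 2, a setting chosen after the data were seen, CTRL siRNA had 12 members higher and 0 lower than the plasmid arrays. The shares of all genes were 2.33% and 2.15%, and the list median was 0.25. FMR4 siRNA minus CTRL siRNA then gave 0 called members in limma (6 at an unadjusted p under 0.05) and a median of 0.04, with 21 of 27 positive. Of all genes 1.79% were then called higher and 1.76% lower. The differences of this list from the plasmid arrays do not use that array, which enters only the shared estimate of spread, while the calls over CTRL siRNA rested on it. What made replicate 2 differ was not tested.

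**Figure D3:**
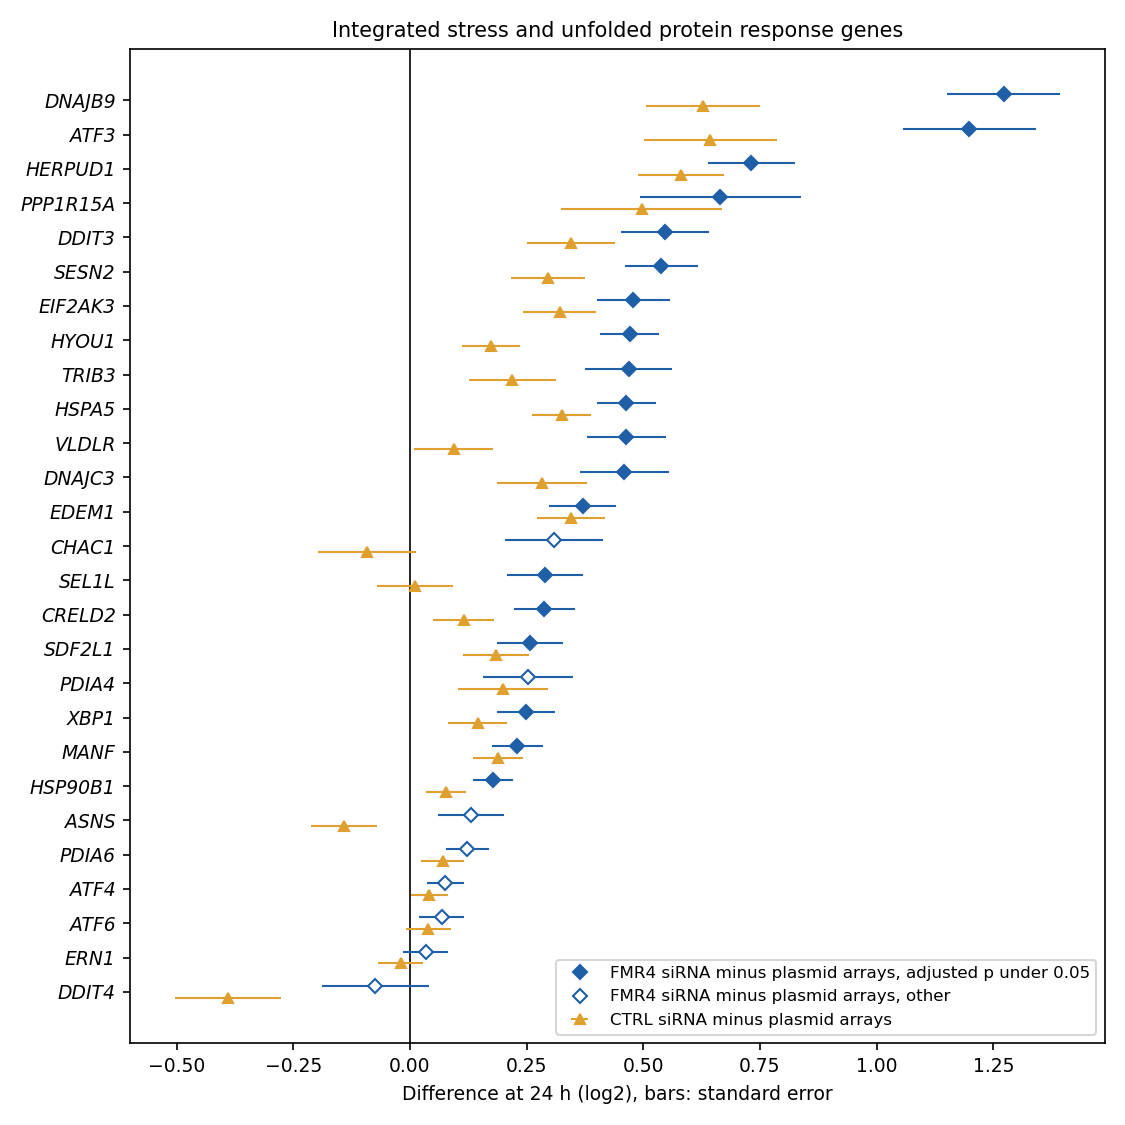
Differences from the plasmid mean at 24 h (x axis, log2, bars are standard errors) for the 27 measured genes of the integrated stress and unfolded protein responses, for FMR4 siRNA (diamonds, filled where the adjusted p was under 0.05) and CTRL siRNA (triangles). The 19 filled diamonds lie between 0.18 and 1.27, and CTRL siRNA lies lower in all 27 genes.

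The promoters of the genes of this list were searched for the elements by which the unfolded protein response is known to act. The list was made up of genes of the integrated stress and unfolded protein responses. A larger share of such elements than among all promoters can therefore follow from how it was chosen, and is not a result of these arrays. Sequences were taken from RefSeq on GRCh38.p14, 250 bases before to 50 after each start site, and a promoter was found for all 27 members. The ERSE (CCAAT, 9 bases, CCACG, on either strand) was present in 5 of the 27, HSPA5, HSP90B1, PDIA6, XBP1 and CRELD2, against 19 of 14239 measured genes (0.133%) and 27 of 35116 promoters (0.0769%). The ERSE-II (ATTGG, 1 base, CCACG) was present in 3, HERPUD1, SDF2L1 and HYOU1, against 17 measured genes (0.119%) and 19 promoters (0.0541%). The motifs share the letters CCACG, and no member held both. The cAMP response element TGACGTCA was found in 1 of the 27, PPP1R15A (3.1% of measured genes, 1.85% of promoters), and the ATF4 element TGATGCAA in CHAC1 and HERPUD1 (0.969% of measured genes, 0.866% of promoters). Of the 8 genes with an ERSE or ERSE-II, PDIA6 was the exception that was not called, while 19 of all 27 members were called. The sites are printed 5′ to 3′ on the strand that carries the motif, with its fixed letters in capitals, to show how alike they are across these genes:
HSPA5, chr9:125241386-125241414, minus strand: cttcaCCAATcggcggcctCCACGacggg
HSP90B1, chr12:103930211-103930239, plus strand: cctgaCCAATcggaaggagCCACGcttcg
CRELD2, chr22:49918549-49918577, minus strand: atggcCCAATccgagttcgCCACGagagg
XBP1, chr22:28800598-28800626, minus strand: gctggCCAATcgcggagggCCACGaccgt
PDIA6, chr2:10812848-10812876, minus strand: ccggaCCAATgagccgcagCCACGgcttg
HERPUD1, chr16:56932016-56932044, plus strand: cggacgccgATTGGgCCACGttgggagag
HYOU1, chr11:119057371-119057399, plus strand: cggcctgggATTGGaCCACGtcacggggc
SDF2L1, chr22:21642105-21642133, minus strand: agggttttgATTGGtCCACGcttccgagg

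A match describes these letters in this window and not a bound site. HSP90B1 and HYOU1 each held a further site.

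Several other groups had a larger share of higher calls than all genes. Of 28 immediate-early and SRF target genes 9 were higher and 0 lower (median 0.27). Besides ANKRD1 and ATF3 they were DUSP1, a MAP kinase phosphatase (0.73), the zinc finger factor KLF4 (0.69), FOSB (0.42), JUN (0.38), SRF (0.34), MYC (0.30) and NR4A1 (0.24). DUSP1 read 10.47, 10.78 and 10.92 against 9.82, 9.997 and 10.17, with CTRL siRNA at 10.42, 10.02 and 10.64. The count fell to 5 without FMR4 siRNA replicate 3. FMR4 siRNA minus CTRL siRNA called 0 of the 28 in either direction (3.43% and 2.45% of all genes), with a median of 0.18. CTRL siRNA minus plasmid had 5 higher and 0 lower. For this and the lists that follow, its shares of all genes were 3.04% higher and 3.86% lower.

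COPII coats carry cargo out of the endoplasmic reticulum. Of 27 genes of COPII and secretory traffic 9 were higher and 0 lower (median 0.13), and 6 without FMR4 siRNA replicate 2. SEC24D, a cargo adaptor of the coat, read 10.44, 10.63 and 10.53 against 9.66, 9.75 and 9.84, a difference of 0.78 (adjusted p = 6.5e-06), with CTRL siRNA at 10.37, 9.88 and 10.53. The rest were smaller, from 0.18 for SCAMP2 to 0.32 for PREB and SEC16A. SAR1B, the GTPase that starts coat assembly, rose by 0.29 over the plasmid arrays, yet lay 1.18 above CTRL siRNA. Its values were 11.47, 11.54 and 11.39 with FMR4 siRNA, 11.14, 11.16 and 11.24 on the plasmid arrays and 10.38, 10.11 and 10.36 with CTRL siRNA, so that CTRL siRNA lay furthest from the plasmid arrays. Over the list CTRL siRNA minus plasmid had 4 higher and 4 lower.

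Of 27 regulators of the G1/S transition 9 were higher and 1 lower (median 0.11), and 6 were higher without FMR4 siRNA replicate 2. CCND2, a D-type cyclin, read 11.04, 11.05 and 10.98 against 10.29, 10.38 and 10.60, a difference of 0.62, with CTRL siRNA at 10.62, 10.49 and 10.67. CCNE2, an E-type cyclin, differed by 0.54, with CTRL siRNA at 0.13. Inhibitors were among the higher genes as well, with CDKN1B at 0.40, RBL2 at 0.31 and RB1 at 0.18. The lower member was SKP2 (-0.48). The higher genes thus had opposing roles in the cell cycle. CTRL siRNA minus plasmid had 5 higher and 1 lower.

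Of 21 genes of the small RNA machinery 6 were higher and 1 lower (median 0.10). AGO2 read 10.46, 10.63 and 10.63 against 10.03, 10.12 and 10.20, a difference of 0.46, with CTRL siRNA at 10.31, 10.20 and 10.33. AGO1 rose by 0.38 and TNRC6A, the scaffold that links Argonaute to deadenylases, by 0.43. For TNRC6A the siRNA groups went opposite ways, at 10.98, 11.06 and 10.98 with FMR4 siRNA and 10.35, 10.22 and 10.31 with CTRL siRNA, against 10.52, 10.57 and 10.64 on the plasmid arrays. TNRC6B showed the reverse, at -0.23 with FMR4 siRNA and 0.41 with CTRL siRNA. Between 3 and 5 members were higher when 1 array was left out, with 3 without FMR4 siRNA replicate 2 or CTRL pcDNA3.1 replicate 3. CTRL siRNA minus plasmid had 3 higher and 2 lower.

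Endosome, lysosome and autophagy genes had 8 of 30 higher and 1 lower, led by LAMP3 (0.52) and WIPI1 (0.48), with LAMP2 lower (-0.21), and 5 of 30 without FMR4 siRNA replicate 2. CTRL siRNA minus plasmid had 7 higher and 1 lower, with a median of 0.08 against 0.09 with FMR4 siRNA. Genes of cell adhesion and matrix were divided, with 5 of 30 in each direction. Their falls were larger, with ALCAM, FAT1, NID1 (-0.57) and CDH1 (-0.50) against a largest rise of 0.37 in ITGA5. NID1, a basement membrane linker, was lower still with CTRL siRNA (-1.09). Chromatin and DNA methylation genes had 6 of 34 higher and 5 lower, among them KMT5A (-0.77), SINHCAF (-0.43) and TET3 (0.37). CTRL siRNA minus plasmid had 0 higher and 4 lower for adhesion and 2 of each for chromatin. Higher calls fell to 1 of 30 for adhesion without FMR4 siRNA replicate 1 or 2, and to 2 of 34 for chromatin without replicate 2 or 3. LAMP2 lost its call without FMR4 siRNA replicate 1 or 3.

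Nucleotide and folate metabolism had 3 of 27 higher and 4 lower, the latter being DUT, SHMT1, RRM1 (-0.26) and ATIC (-0.17), and 2 lower without FMR4 siRNA replicate 3. The higher count fell to 1 without FMR4 siRNA replicate 2, CTRL pcDNA3.1 replicate 2 or 3, or FMR4 pcDNA3.1 replicate 1 or 3. RRM2, the other subunit of the ribonucleotide reductase that RRM1 belongs to, was higher (0.32). Of 34 replication-dependent histone genes 0 were higher and 4 lower, with a median of -0.13 and 1 of 34 positive (48.2% of all genes). CTRL siRNA minus plasmid also had 0 higher and 4 lower. H4C8 led with -0.53. Histone genes have near-identical copies that 1 probe set may not separate, so single members are uncertain.

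The remaining lists lay nearer the shares of all genes. Interferon-stimulated genes had 1 of 28 higher (HERC5, 0.30) and 1 lower (USP18, -0.29), and genes that sense nucleic acids 2 of 18 higher (TLR3, 0.31, and DDX41, 0.20). For TLR3 the plasmid values of 5.20 to 5.34 lie under the silent-gene level. The p53 targets had 2 of 18 higher, among them PMAIP1, a BH3-only protein (0.61), and 2 lower, DDB2 (-0.57) and SESN1 (-0.35). Apoptosis genes had 3 of 23 higher, including MCL1 (0.29), and 2 lower, APAF1 and FADD (-0.21). These counts rested on few arrays. Apoptosis fell to 1 higher without FMR4 siRNA replicate 1 or 2, CTRL pcDNA3.1 replicate 3 or FMR4 pcDNA3.1 replicate 3, and to 1 lower without FMR4 siRNA replicate 2. The nucleic acid sensors fell to 0 without FMR4 siRNA replicate 3 and to 1 without replicate 2. The interferon genes fell to 0 higher without FMR4 siRNA replicate 1 or 2, had 2 higher without CTRL pcDNA3.1 replicate 1, and fell to 0 lower without FMR4 siRNA replicate 2 or 3.

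In the metabolic lists the calls were few and scattered. Glycolysis and hypoxia had 4 of 28 higher, including ENO2 (0.36) and HIF1A (0.25), and 1 lower (PDK1, -0.26). The respiratory chain had UQCRC1 higher (0.25) and SDHD lower (-0.25) of 26. Fatty acid and phospholipid synthesis had 1 of 21 higher (GPAM, 0.20) and 3 lower, including FADS1 (-0.28) and ELOVL5 (-0.23). Mevalonate and sterol synthesis had 2 of 20 lower, GGPS1 and TM7SF2 (-0.24). TM7SF2 lost its call whichever 1 of the 9 arrays was left out. The higher call of GPAM was lost without FMR4 siRNA replicate 2, and the list of glycolysis and hypoxia fell to 2 higher without that array and to 0 lower without FMR4 siRNA replicate 1 or 3. SDHD was lost without FMR4 siRNA replicate 3.

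Signalling and growth lists were likewise mixed. Cytokine and growth factor receptors had 4 of 32 higher, including IL6ST (0.35) and IL6R (0.23), and 1 lower (BMPR2, -0.27). Without FMR4 siRNA replicate 1 this list had 1 higher, without replicate 2 it had 2, and without replicate 3 it had 0 lower. Wnt and Notch genes had 2 of 31 higher, including DVL3 (0.29), and 3 lower, including RBPJ (-0.29) and CTNNB1 (-0.17). Mitosis genes had 2 of 33 higher, including ANLN (0.28), and 2 lower, including NCAPG (-0.32), and DNA replication genes 0 higher and 2 of 34 lower (RPA1 and PRIM1, -0.36). Heat shock genes had 2 of 21 higher, HSF1 (0.23) and DNAJB6 (0.16), and ribosomal protein genes 1 of 23 (RPLP2, 0.13). These counts depended on which arrays were used. With 1 array left out Wnt and Notch genes had 1 to 4 higher, mitosis genes 1 to 3 higher and 1 or 2 lower, DNA replication genes 1 or 2 lower and heat shock genes 1 or 2 higher. Ribosomal protein genes had 0 or 1 higher, as RPLP2 lost its call in 6 of these 9 settings. The cytosolic chaperones thus had few calls beside those of the endoplasmic reticulum.

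**Figure D4:**
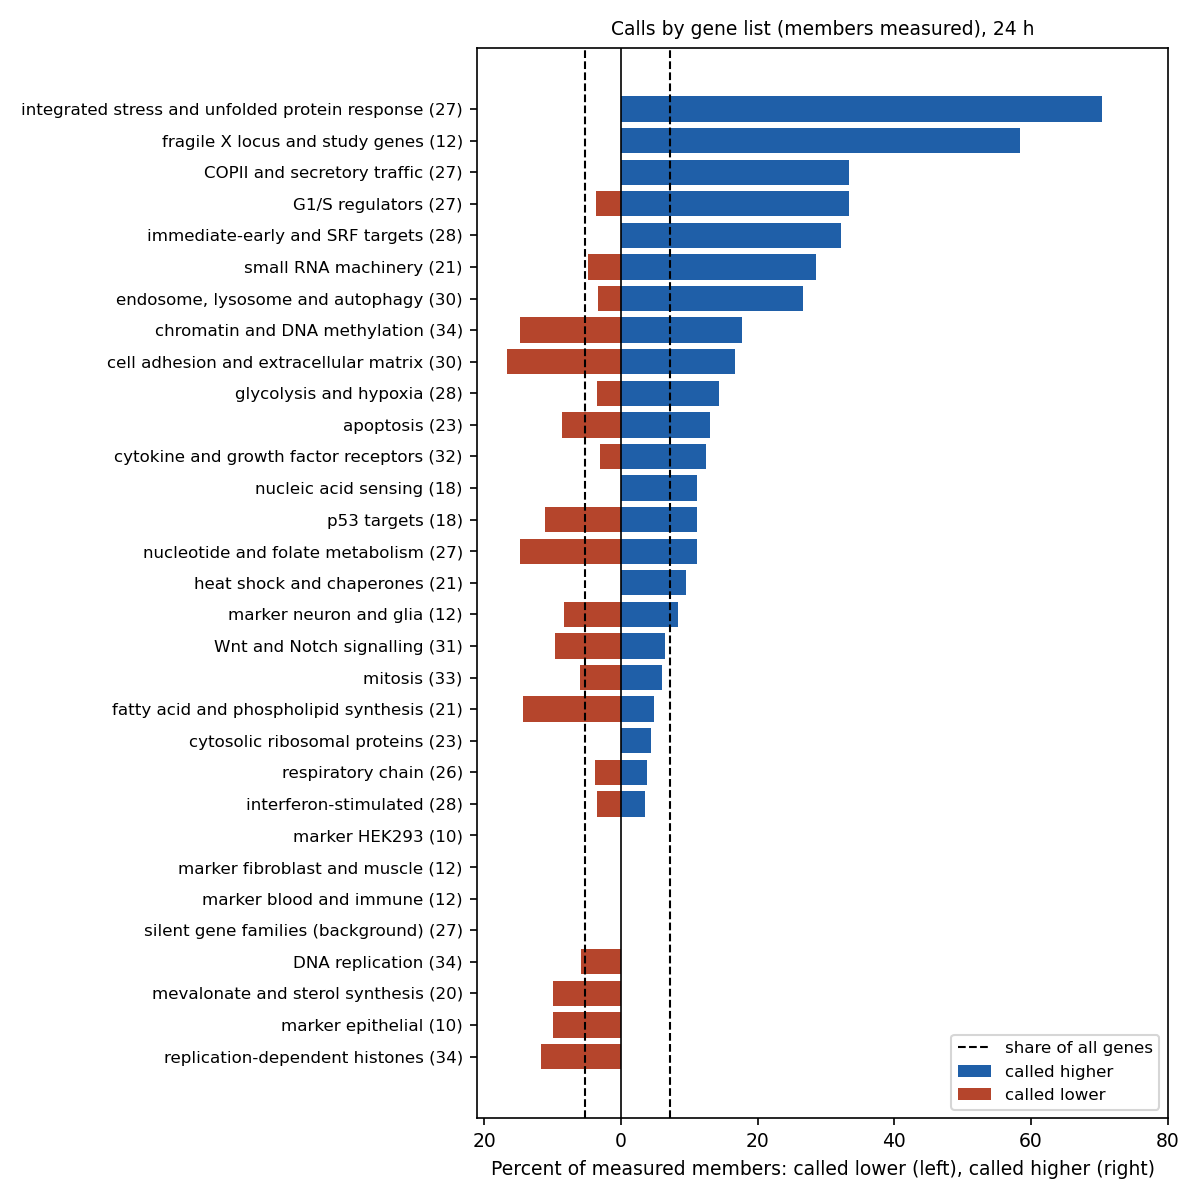
Share of the measured members of each gene list (members in brackets) called higher (right) or lower (left) with FMR4 siRNA than on the plasmid arrays at 24 h, at an adjusted p under 0.05. Dashed lines mark the shares of all genes, 7.1% higher and 5.32% lower. The list of the integrated stress and unfolded protein responses, with 19 of 27 higher, has the longest bar of the gene groups.

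The same difference was taken at 6 h, where 378 genes were higher (2.05%) and 946 lower (5.14%). The change of the difference from 6 to 24 h passed for 986 genes upward (5.35%) and 458 downward (2.49%). The split of these calls depended on scaling, with 68.3% upward as deposited, 54.2% after quantile normalization (586 and 496) and 83.8% after median centring (1756 and 339). The count ran from 639 without FMR4 siRNA replicate 2 of 24 h to 2992 without FMR4 siRNA replicate 1 of 6 h. The 6 h FMR4 siRNA arrays had wide deviations from their group mean, with an SD over genes of 0.14, 0.11 and 0.18 in replicates 1, 2 and 3.

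ATF3 was 0.43 under the plasmid mean at 6 h (adjusted p = 0.067) and 1.20 over it at 24 h, a change of 1.63 (adjusted p = 0.00012). SEC24D went from -0.28 to 0.78, and RHOB from -0.20 to 0.52. ANKRD52 went from 0.07 to 0.74, and here CTRL siRNA stood at 0.71 over the plasmid arrays of 24 h. These genes of lowest p were near or under the plasmid level early and above it late. The plasmid mean itself fell between the times. It went from 8.23 to 7.68 for ATF3, 10.04 to 9.75 for SEC24D and 9.95 to 9.58 for RHOB. In the same genes the FMR4 siRNA mean rose from 7.80 to 8.88, 9.76 to 10.53 and 9.75 to 10.10. CTRL siRNA was likewise under the plasmid mean at 6 h in these genes. At 24 h CTRL siRNA stood 0.64, 0.51 and 0.24 over it. Of the 27 stress genes 1 was higher at 6 h and 15 changed upward between the times, with a median change of 0.38.

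The falls were present in part at 6 h. GGPS1 went from -0.23 to -1.06, DUT from -0.20 to -0.92, RPA1 from -0.21 to -0.80 and BTBD1 from -0.10 to -0.66. The first 3 already passed at 6 h, and all 4 widened. ALCAM stood at -1.10 by 6 h and -1.53 at 24 h.

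**Figure D5:**
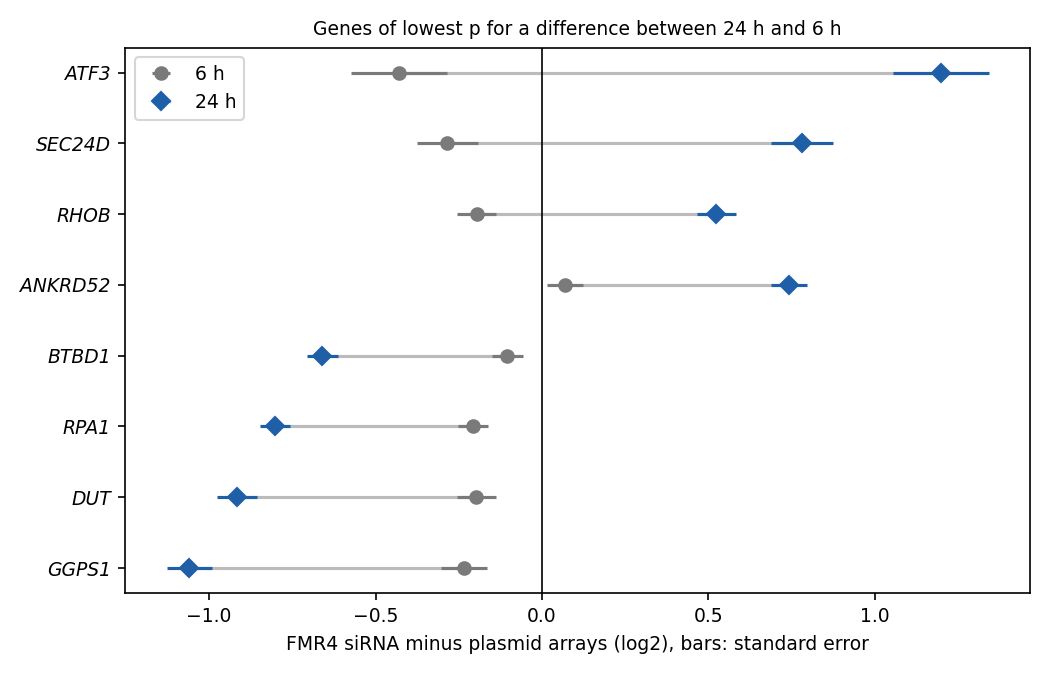
FMR4 siRNA minus plasmid difference (x axis, log2, bars are standard errors) at 6 h (circles) and 24 h (diamonds) for the 8 genes of lowest p for a change between the times, 4 in each direction. ATF3 crosses from -0.43 to 1.20, while GGPS1, DUT, RPA1 and BTBD1 start at or below 0 and move further down.

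FMR1 itself, which lies on the opposite strand from FMR4, read 10.74, 10.75 and 10.51 with FMR4 siRNA and 10.24, 10.38 and 10.42 on the plasmid arrays. The difference was 0.31 (SE 0.052, adjusted p = 0.00039). CTRL siRNA read 10.57, 10.53 and 10.51, 0.18 over the plasmid mean, and FMR4 siRNA minus CTRL siRNA was 0.13 (adjusted p = 0.29). FMR1 was thus higher than on the plasmid arrays in both siRNA groups, and no difference between these groups was called.

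Of 12 genes of the fragile X family or measured in the study, 7 were higher and 0 lower, against 7.1% and 5.32% of all genes. With 1 array left out 6 or 7 were higher, and 1 was lower without CTRL pcDNA3.1 replicate 3. Besides FMR1 the 7 higher genes were its paralogue FXR2 (0.24), its partner CYFIP1 (0.25), the deubiquitinase YOD1 (0.39, with CTRL siRNA at 0.24), RRM2 (0.32), the G protein subunit GNG12 (0.26) and MBD4, a DNA glycosylase that binds methylated CpG sites (0.16). MBD4 read 10.29, 10.25 and 10.16 against 10.02, 10.06 and 10.14 (adjusted p = 0.021), and 10.19, 10.11 and 10.21 with CTRL siRNA. Its call was lost without FMR4 siRNA replicate 1 or 2, against CTRL pcDNA3.1 alone (0.11, adjusted p = 0.22), and when only these 9 arrays were fitted (adjusted p = 0.051). The paralogue FXR1 (0.01), MALAT1 (-0.13) and GAPDH (0.06) did not pass. FXR1 changed sign between settings. FMR4 siRNA minus CTRL siRNA called 0 of the 12 in either direction (3.43% and 2.45% of all genes). CTRL siRNA minus plasmid had 3 higher and 0 lower (3.04% and 3.86% of all genes). Its median was 0.13, against 0.20 with FMR4 siRNA. The study chose part of this list on these samples, so it is not independent evidence of a direction.

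Markers of the cell type were checked on the same arrays. The HEK293 markers INA, VIM, NEFL, NEFM, KRT18 and LIN28B had mean levels of 10.01 to 12.14, while CHGB (6.39) and NEFH (6.64) lay not far above the silent-gene level. The list also holds KRT8 and PAX2. All 10 markers lay above the silent-gene level, with a list median of 10.12, and 0 of 10 were called in this comparison. Of the markers of other cells, 9 of 12 for blood, 9 of 12 for fibroblasts and muscle, 9 of 10 for epithelium and 10 of 12 for neurons and glia had mean levels above it, with list medians of 6.33, 6.82, 6.75 and 7.46. The lowest members were DCN (3.91), PTPRC and POSTN (both 4.35), LUM (4.71), LYZ (4.74) and MS4A1 (4.78), which lay under the silent-gene level. No blood or fibroblast and muscle marker was called of 12 each, epithelial markers had 1 of 10 lower (CDH1), and neuronal and glial markers had 1 of 12 higher (GAD1, 0.19) and 1 lower (MBP, -0.19). Of the 9 settings that left out 1 array, MBP lost its call in 6 and GAD1 in 2. Of 27 genes of silent families 0 were called. In a bulk culture, fewer cells of a kind and less RNA per cell cannot be told apart.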

How the data were processed

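Total RNA was prepared with the Ambion WT Expression Kit and hybridised to Affymetrix Human Gene arrays (1.0 ST per the labels, 2.0 ST in the study's methods). The authors subtracted background and normalized with GC-RMA. The versions are not given in the sources used here. Deposited values, in log2, run from 2.62 to 14.5, with array medians of 7.43 to 7.53, and were used as deposited. The number of arrays limits the precision.

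Of 33297 probe sets, 12083 had no gene in the probe annotation, 1754 had several symbols and 19460 had 1. The latter gave 18417 genes, each read from its probe set of highest mean (769 genes had several). Symbols are those of the annotation. A mean per condition was fitted over all 24 arrays with limma 3.58.1 in R 4.3.3 (16 residual degrees of freedom, median 22.0 after moderation). Tests are two-sided, with p-values adjusted by Benjamini-Hochberg over 21214 probe sets with a gene and a threshold of 0.05. The contrasts were FMR4 siRNA minus the mean of both plasmid groups at 24 h, the weakest of its differences from each other group of 24 h, and 24 h minus 6 h of the former. The upper quartile of 27 olfactory, keratin-associated and taste receptor genes (log2 5.94) marks the level of silent genes, and 83.0% of genes lay above it. The fitting code was run on simulated data with independent noise between arrays. That is a check of the code and not of the calls made here.

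The comparison, the named genes and the 31 gene lists were chosen with earlier results of these data known. Lists are described by counts and medians, with no test. Named were, among called genes with separate arrays, the 12 largest rises and 12 largest falls, then the 8 largest in each direction of the second test, the 4 of lowest p in each direction of the third, up to 3 called genes per list, and FMR1, FXR1, FXR2, MBD4, YOD1, GNG12, RRM2, MALAT1, GAPDH, SAR1B, EMP2, FAT1 and RPA1. Members of lists beyond these were named after their values were seen. Alternatives changed the arrays fitted, weights, normalization, filter, adjustment, baseline and threshold, or left out 1 array. Figures used matplotlib 3.10.9 in Python 3.11.15.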

Additional observations from a re-analysis of the deposited data

Results flagged for a closer look

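The difference between FMR4 siRNA and the plasmid arrays itself differed between 24 h and 6 h for 1444 genes, by a test of the change in limma. Among the named genes it moved upward in ATF3 (1.63), SEC24D (1.07), RHOB (0.72) and ANKRD52 (0.67), and downward in GGPS1 (-0.82), DUT (-0.72), RPA1 (-0.59) and BTBD1 (-0.56). ATF3, SEC24D and RHOB were below the plasmid mean at 6 h (adjusted p = 0.067, 0.063 and 0.047) and above it at 24 h, whereas the 4 that moved downward were below it at both times. For ATF3, SEC24D and RHOB the plasmid mean was itself lower at 24 h than at 6 h. CTRL siRNA crossed the plasmid mean in the same way in these genes. The cause was not tested.

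Probe sets without a gene in the annotation also carried signal. Of 12083 such probe sets, which no count above uses, 299 were called between FMR4 siRNA and the plasmid arrays at 24 h (128 higher and 171 lower), or 2.47%. Under the same adjustment, over all probe sets, the share of genes called was 10.1%. What these probe sets measure was not looked at.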

How the results depend on the processing

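The count of 2287 genes ranged from 1465 (without FMR4 siRNA replicate 2) to 2274 over the settings that left out 1 array, was 1231 at a threshold of 0.01 and 101 with a difference of at least 1.5-fold, and lay between 1544 and 3124 under the other settings. Of the reported genes, 60.1% were still called without FMR4 siRNA replicate 2 and 90.5% after quantile normalization. The 218 genes apart from each other group became 350 with array weights, 112 at 0.01 and 132 (without FMR4 siRNA replicate 3) to 196 with 1 array left out, among them 142 without CTRL siRNA replicate 1 and 142 without FMR4 pcDNA3.1 replicate 1. The 1444 genes whose difference changed between times became 3590 with array weights, 881 with adjustment over all probe sets, 361 at 0.01 and 639 (without FMR4 siRNA replicate 2 of 24 h) to 2992 (without FMR4 siRNA replicate 1 of 6 h) with 1 array left out. Other such counts were 837 without FMR4 siRNA replicate 2 of 6 h, 928 without FMR4 pcDNA3.1 replicate 3 of 6 h, 962 without CTRL pcDNA3.1 replicate 3 of 24 h and 908 without FMR4 pcDNA3.1 replicate 3 of 24 h. The cause was not tested. FXR1, not called in any setting, turned negative after quantile normalization (-0.0322), against CTRL pcDNA3.1 alone (-0.0359), and without FMR4 siRNA replicate 1 (-0.0275) or 2 (-0.0204), CTRL pcDNA3.1 replicate 3 (-0.0063) or FMR4 pcDNA3.1 replicate 3 (-0.0023), with 0.0664 as the highest value when 1 array was left out. Of 2242 values of named genes in the first comparison under these settings 2111 kept direction and call, 121 lost the call, 4 gained it and 6 reversed, and in the other comparisons 338 of 352 (apart from each group) and 216 of 216 (change with time) kept both. Without CTRL siRNA replicate 2, FMR4 siRNA minus CTRL siRNA fell from 632 to 329 higher genes and CTRL siRNA minus plasmid from 711 to 396 lower genes.

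The arrays were not treated as paired by replicate number. Same-numbered deviations correlated at -0.13, 0.05 and 0.09 between FMR4 siRNA and CTRL pcDNA3.1 and at 0.15, -0.10 and 0.31 between FMR4 siRNA and FMR4 pcDNA3.1. Different-numbered ones ran from -0.22 to 0.23 and from -0.39 to 0.33. Deviations from a group mean constrain each other, so these values cannot show whether the arrays were paired. With a replicate block the counts were 2149, 185 and 1231.

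The limits are those of 3 arrays per group and of 2 reagents. Genes near the silent level have little signal over background, and whether FMR4 itself was lowered was not read from these arrays.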

Other observations

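In a few named genes CTRL siRNA lay below and FMR4 siRNA above all plasmid arrays, with CTRL siRNA the further of them. EMP2, an epithelial membrane protein, read 9.38, 9.23 and 9.17 with CTRL siRNA against 10.28, 10.38 and 10.44 (lowest, median and highest) on the plasmid arrays, a difference of -1.11 (adjusted p = 7.7e-09). FMR4 siRNA read 10.53, 10.64 and 10.63, a difference from the plasmid arrays of 0.22 that did not pass (adjusted p = 0.080), although its arrays lay above all 6. It passed in the fits to the 12 arrays of 24 h (adjusted p = 0.018) and to the 9 arrays compared (0.018), with array weights (0.029) and after median centring (0.037). IL6ST, the shared receptor subunit of the interleukin-6 family, read 9.57, 9.24 and 9.42 with CTRL siRNA, 10.05, 10.19 and 10.37 on the plasmid arrays and 10.68, 10.59 and 10.44 with FMR4 siRNA. With EMP2 and IL6ST, the size of a difference between FMR4 siRNA and CTRL siRNA (1.34 and 1.16) came mostly from the low CTRL siRNA values. SAR1B had the same order of groups.

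HIF1A, the oxygen-regulated transcription factor, also had siRNA groups on opposite sides of the plasmid mean, at 0.25 with FMR4 siRNA (adjusted p = 0.0013) and -0.23 with CTRL siRNA (adjusted p = 0.0047). ANKRD52 and AGO1 did the contrary, with both siRNA groups above all plasmid arrays. ANKRD52 read 10.21, 10.25 and 10.21 with FMR4 siRNA and 10.29, 10.11 and 10.18 with CTRL siRNA, against 9.38, 9.49 and 9.56. AGO1 read 10.89, 10.95 and 10.90 with FMR4 siRNA and 10.99, 10.91 and 10.98 with CTRL siRNA, against 10.42, 10.55 and 10.62. No explanation of these patterns was tested.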
